A study of Homo sapiens with 6 samples.

Results

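Circadian clock genes keep time in nearly every cell through a loop of transcription that feeds back on itself. CLOCK pairs with BMAL1 (listed in the counts as ARNTL) on E-box sequences and switches on the PER and CRY genes, whose proteins return to the nucleus and silence the pair. The REV-ERB receptors NR1D1 and NR1D2 repress BMAL1 in a second loop, and DBP and TEF, members of the PAR bZIP family of transcription factors, carry the rhythm to output genes through D-box sequences. In skeletal muscle the clock is known for its control of metabolism and of the myogenic factor MYOD1. The genes described here are PER1, PER2, PER3, CRY1, CRY2, CLOCK, NR1D1, NR1D2, DBP and TEF. They were taken by gene symbol, 10 rows of the 58735 in the count table, each symbol matched 1 row, and all 10 were among the 15935 genes that passed the filter on low counts.

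RD is an established cell line of embryonal rhabdomyosarcoma, a tumor with a skeletal muscle phenotype. RNA was sequenced from 3 RD cultures transduced with lentivirus carrying scrambled shRNA (control) and from 3 transduced with TAK1 shRNA, which targets MAP3K7, the gene of the kinase TAK1. The TAK1 shRNA cultures carried 1 construct, so the knockdown and anything else that construct does cannot be told apart. The sources used here state neither whether the 3 cultures of a group were transduced separately, nor the time from transduction to RNA extraction, nor the time of day or serum history at harvest. The p-values therefore measure only the spread between these samples, which may be technical, and a change in the level of a clock gene cannot be told apart from a change in the phase of its rhythm. No series of harvest times is described for either group. In bulk RNA, fewer cells expressing a gene and less RNA per cell cannot be told apart either.

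Total counts ran from 28839898 to 34469323 per library, of which the tested genes took 99.9% or more. MAP3K7 was lower in every library of the TAK1 shRNA group, with 30.5, 33.6 and 29.9 CPM (counts scaled to a common library size by the trimmed mean of M-values) against 77.9, 76.5 and 77.6 CPM in control cultures. Of the defining markers of the myogenic lineage, DES reached 336 to 374 CPM and MYOD1 255 to 355 CPM, whereas MYF5 had 0 counts and MYF6 at most 1 count in each library. The 7 markers of epithelium, blood and endothelium together held 5 to 17 counts per library. Some myogenic markers moved with the group. The summed level of the 7 myogenic markers ran from 1878 to 1909 CPM in control and from 1791 to 1901 CPM in knockdown cultures, with log2 fold changes of 0.37 for MYOD1, 0.27 for MYOG and -0.40 for CHRNA1. The part of this shift in the changes of clock genes was not tested.

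The clock genes did not move as a block. Of the 10, 5 were upregulated in TAK1 knockdown RD cells, beside 11.8% of all tested genes by the same rule, which asked for an adjusted p below 0.05 together with a log2 fold change of 0.25 or more in size. These were PER1, PER2, CRY2, DBP and TEF, with increases from 24.3% to 58.8%. Of the 10, CLOCK alone was downregulated, as were 11.3% of all tested genes. PER3, CRY1, NR1D1 and NR1D2 did not pass the test. The median log2 fold change of the 10 genes was 0.25, beside 0.018 over all tested genes, whose lower and upper quartiles were -0.16 and 0.22. The 10 genes were chosen with earlier results of these data known, so these comparisons are a description only. In 6 of the 10 every TAK1 shRNA library lay above every control library, as it did for 21.6% of all tested genes, and in 1 every library lay below, as for 22.2%. Adjusted p-values throughout are those of the quasi-likelihood test in edgeR, adjusted by the method of Benjamini and Hochberg over all tested genes (n = 3 in each group), and SE is the standard error of a log2 fold change.

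**Figure D1:**
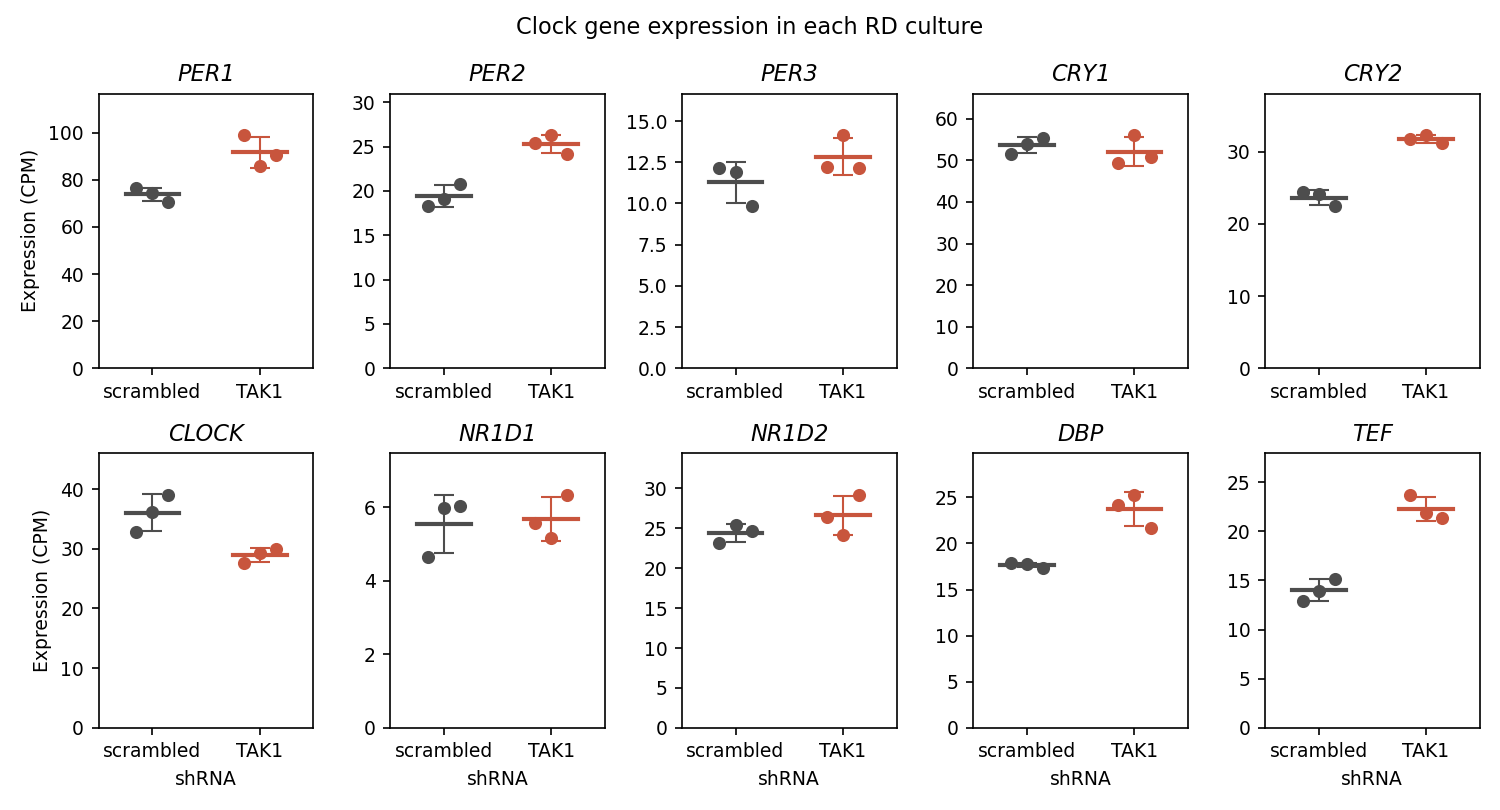
Expression of the 10 clock genes in each RD culture, in CPM, with each axis starting at 0. Points are libraries, horizontal lines are group means and error bars are SD (n = 3). The groups are separate for PER1, PER2, PER3, CRY2, CLOCK, DBP and TEF and overlap for CRY1, NR1D1 and NR1D2, and in PER3 the lowest TAK1 shRNA library (12.2 CPM) sits just above the highest control library (12.1 CPM).

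**Figure D2:**
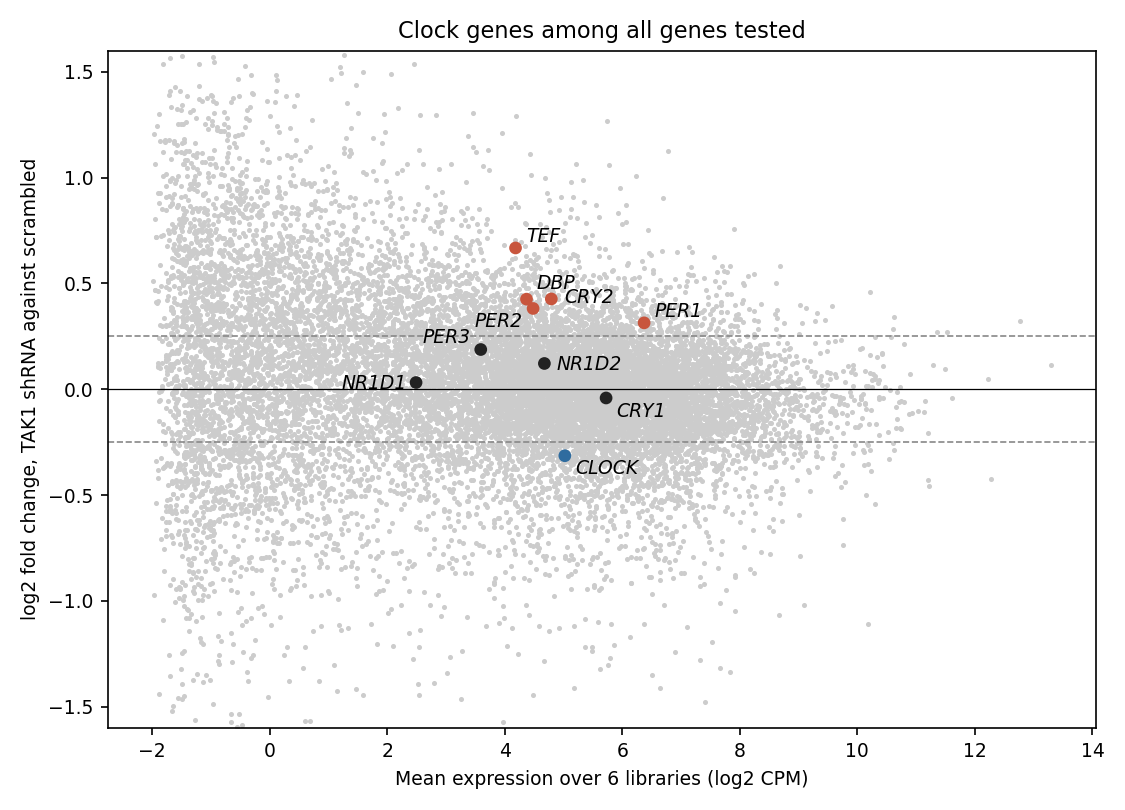
Log2 fold change of every tested gene against its mean expression over the 6 libraries (log2 CPM), with the clock genes in color (red, upregulated; blue, downregulated; black, not called) and dashed lines at the fold threshold of 0.25. Of the tested genes, 15848 are shown and 87 lie outside the axes. TEF stands highest among the clock genes at 0.67 and CLOCK lowest at -0.31.

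The promoters of these genes are among the sites through which clock proteins act on each other's genes. They were searched for sequences that clock proteins are known to bind and for the cAMP element. RefSeq (GRCh38.p14) lists 15 promoter windows for the 10 genes, each running from 250 bases before to 50 bases after an annotated start. Sequence of these genes outside the windows was not searched. The letters searched, on both strands, were CACGTG (E-box), CACGTT (E'-box), TTATGTAA and TTACGTAA (D-box), TAGGTCA and TGGGTCA (REV-ERB/ROR element) and TGACGTCA (cAMP element). No 2 matches overlap in these windows. An E-box was found in 4 of the 15 windows (26.7%), against 7.26% of all 35116 windows. An E'-box was found in 5 windows (33.3%, against 5.34%), a D-box in 3 (against 1.01%) and a REV-ERB/ROR element in 3 (against 5.69%). The cAMP element was in none of the 15 and in 1.85% of all windows. Windows of 1 gene share its locus and can overlap, the clock windows were richer in G and C than all windows (median 70.3% against 58.7%), and a match is a string of letters, not a measured site. The windows below are those with a match in genes that changed, with NR1D2, which did not pass the test, as the window that holds the most matches, and capitals mark the matches.
PER1, chr17:8152355-8152654, minus strand, E-box: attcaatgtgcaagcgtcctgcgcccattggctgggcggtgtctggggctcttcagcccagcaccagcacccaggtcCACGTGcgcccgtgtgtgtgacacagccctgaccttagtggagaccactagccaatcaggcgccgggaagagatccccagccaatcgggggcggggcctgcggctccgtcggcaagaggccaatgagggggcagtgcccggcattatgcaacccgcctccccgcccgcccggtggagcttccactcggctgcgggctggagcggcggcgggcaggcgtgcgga
PER2, chr2:238288561-238288860, minus strand, E'-box then D-box: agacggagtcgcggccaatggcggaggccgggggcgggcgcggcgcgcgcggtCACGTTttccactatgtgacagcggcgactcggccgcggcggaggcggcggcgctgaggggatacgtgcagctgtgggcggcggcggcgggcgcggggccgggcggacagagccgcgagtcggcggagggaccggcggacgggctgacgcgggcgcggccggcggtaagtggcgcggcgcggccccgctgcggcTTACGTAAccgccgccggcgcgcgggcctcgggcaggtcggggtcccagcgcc
CRY2 (start 2), chr11:45847225-45847524, plus strand, E'-box then REV-ERB/ROR element: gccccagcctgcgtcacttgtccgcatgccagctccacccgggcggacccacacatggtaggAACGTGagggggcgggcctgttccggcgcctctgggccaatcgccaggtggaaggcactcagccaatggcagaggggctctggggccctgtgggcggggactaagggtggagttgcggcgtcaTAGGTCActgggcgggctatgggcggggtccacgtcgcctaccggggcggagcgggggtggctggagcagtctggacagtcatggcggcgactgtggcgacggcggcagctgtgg
CLOCK (start 2), chr4:55545883-55546182, minus strand, REV-ERB/ROR element then E'-box: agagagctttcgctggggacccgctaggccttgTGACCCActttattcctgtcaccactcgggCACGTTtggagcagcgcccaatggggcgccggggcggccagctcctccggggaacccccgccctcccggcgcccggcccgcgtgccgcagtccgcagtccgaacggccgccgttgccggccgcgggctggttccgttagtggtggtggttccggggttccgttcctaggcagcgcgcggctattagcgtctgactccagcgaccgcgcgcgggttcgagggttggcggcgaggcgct
TEF (start 1), chr22:41367205-41367504, plus strand, E-box: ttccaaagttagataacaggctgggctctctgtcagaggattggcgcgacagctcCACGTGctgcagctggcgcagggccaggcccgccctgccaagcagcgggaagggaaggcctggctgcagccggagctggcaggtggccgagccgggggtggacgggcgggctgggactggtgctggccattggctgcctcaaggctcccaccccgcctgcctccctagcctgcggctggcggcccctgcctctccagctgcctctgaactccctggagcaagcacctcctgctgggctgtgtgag
TEF (start 2), chr22:41381692-41381991, plus strand, E-box: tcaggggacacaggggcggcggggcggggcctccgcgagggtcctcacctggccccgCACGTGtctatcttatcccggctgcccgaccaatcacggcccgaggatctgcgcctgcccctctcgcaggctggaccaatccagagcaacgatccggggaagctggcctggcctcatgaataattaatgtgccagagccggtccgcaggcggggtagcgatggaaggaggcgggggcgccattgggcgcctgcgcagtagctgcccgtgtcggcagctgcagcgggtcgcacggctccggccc
NR1D2 (start 2), chr3:23945871-23946170, plus strand, D-box, E-box, REV-ERB/ROR element, E-box: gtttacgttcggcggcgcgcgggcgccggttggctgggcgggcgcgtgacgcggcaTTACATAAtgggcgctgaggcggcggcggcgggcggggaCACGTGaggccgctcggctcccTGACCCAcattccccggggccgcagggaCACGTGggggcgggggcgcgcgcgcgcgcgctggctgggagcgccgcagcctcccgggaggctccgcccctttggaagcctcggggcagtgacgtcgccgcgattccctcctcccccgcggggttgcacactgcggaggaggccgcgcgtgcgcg
DBP, which was upregulated, had 0 matches in its single window, as had the start 1 windows of CRY2 and CLOCK, and CRY1 and NR1D1, which did not pass the test, each held an E'-box, 89 and 168 bases before the start. Windows with and without an E-box or E'-box thus occurred among genes that passed the test and among genes that did not.

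**Figure D3:**
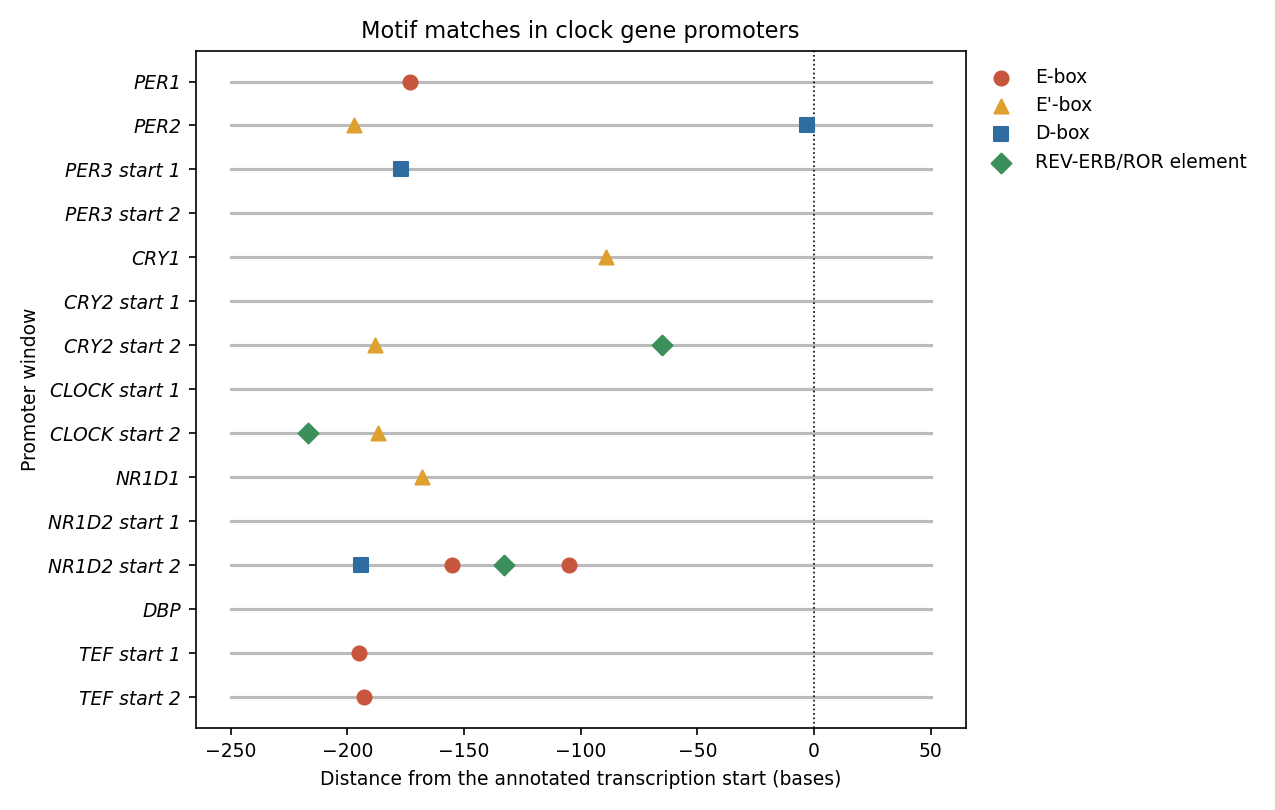
Motif matches in the 15 promoter windows of the 10 clock genes, by distance in bases from the annotated start (dotted line). Each grey line is 1 window, and symbols mark the first base of a match to an E-box (PER1, NR1D2 and both TEF windows), an E'-box, a D-box or a REV-ERB/ROR element.

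The period genes encode the repressors that accumulate and shut down CLOCK and BMAL1. PER1, the period gene with the highest level in these cells (chromosome 17, 8140472 to 8156506, minus strand), reached 76.4, 74.3 and 70.6 CPM in control replicates 1, 2 and 3, and 98.9, 85.8 and 90.6 CPM in TAK1 knockdown cultures. All 3 knockdown libraries lay above the highest control library. The means were 73.8 ± 2.94 and 91.7 ± 6.63 CPM (SD, n = 3), which gave a log2 fold change of 0.31 (SE 0.058, adjusted p = 0.00013 from edgeR). PER2 (chromosome 2, 238244044 to 238290102), like PER1 a repressor needed for a stable rhythm in mammals, had 18.3, 19.1 and 20.8 CPM in control and 25.4, 26.3 and 24.2 CPM in knockdown cultures. Again the groups did not overlap, and the log2 fold change was 0.38 (SE 0.078, adjusted p = 0.00044 from edgeR). PER3, a paralog whose loss has milder effects on rhythm, had 12.1, 11.9 and 9.83 CPM in control and 12.2, 14.1 and 12.2 CPM in knockdown cultures. Its groups were separated only by a narrow margin, and its log2 fold change of 0.19 (95% confidence interval -0.029 to 0.41) did not pass the test (adjusted p = 0.18 from edgeR). Exons of PER3 share 868 bases with UTS2 on the opposite strand, which had 0 counts in all 6 libraries. They also share 482 bases with a long noncoding RNA on that strand, and the part of shared reads was not tested. Within a library, the count of PER2 relative to PER1 differed by 0.071 on the log2 scale between the groups and that of PER3 relative to PER1 by -0.12, and both sets of ratios overlapped (2-sided exact permutation p = 0.6 and 0.4). With 1 library left out in turn, these differences ran from -0.0038 to 0.15 and from -0.24 to -0.035.

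The cryptochromes bind CLOCK and BMAL1 directly and are the strongest repressors of the loop. CRY2 (chromosome 11, 45847118 to 45883248) had 24.4, 24.1 and 22.4 CPM in control cultures and 31.8, 32.3 and 31.2 CPM in knockdown cultures. The knockdown libraries were close to each other and all above the control libraries. The means were 23.6 ± 1.04 and 31.8 ± 0.523 CPM (SD, n = 3), which gave a log2 fold change of 0.43 (SE 0.071, adjusted p = 3.74e-05 from edgeR). CRY1, the more abundant cryptochrome (chromosome 12, 106991364 to 107093549), had 51.6, 53.9 and 55.4 CPM in control and 49.4, 56.0 and 50.9 CPM in knockdown cultures. Its groups overlapped, and its log2 fold change was -0.041, with a 95% confidence interval from -0.17 to 0.088 (adjusted p = 0.67 from edgeR). This interval lies below that of CRY2, 0.28 to 0.57. The paralogs were also compared within each library, which needs no scaling between libraries. The log2 ratio of CRY2 to CRY1 was -1.08, -1.16 and -1.30 in control and -0.63, -0.79 and -0.71 in knockdown cultures. The ratio was higher in all 3 knockdown libraries, by 0.47 on average, and the 2-sided exact permutation p of 0.1 is the smallest that 3 libraries against 3 allow (0.56 after adjustment over the 7 ratios compared).

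CLOCK, the activator of the loop and a histone acetyltransferase, had 32.9, 36.2 and 39.0 CPM in control and 27.6, 29.3 and 29.99 CPM in knockdown cultures (chromosome 4, 55427903 to 55546909). Every knockdown library was below every control library. The log2 fold change was -0.31 (SE 0.073, adjusted p = 0.0016 from edgeR), which is a decrease to 0.804 of the control level. In the fits without 1 library, CLOCK came closest of the called clock genes to the fold threshold, at -0.25 without control replicate 3 (adjusted p = 0.024 from edgeR). PER1 came nearly as close, at 0.26 without replicate 1 of the knockdown cultures (adjusted p = 0.0005 from edgeR).

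The REV-ERB receptors are heme-binding repressors that oppose the RORs at BMAL1. NR1D1 encodes REV-ERBα and was the least counted of the 10 genes, with 4.64, 5.97 and 6.03 CPM in control and 5.57, 5.15 and 6.33 CPM in knockdown cultures (132 to 209 counts per library). The groups overlapped widely, and the log2 fold change of 0.032 had a 95% confidence interval from -0.26 to 0.33 (adjusted p = 0.89 from edgeR). NR1D1 shares 473 bases, 18.0% of its exon length, with THRA on the opposite strand, and since strand use in counting is not given, reads there cannot be assigned. THRA itself had 48.3 to 54.8 CPM, with a log2 fold change of 0.0019. NR1D2, which encodes REV-ERBβ, had 23.2, 25.4 and 24.7 CPM in control and 26.5, 24.2 and 29.2 CPM in knockdown cultures. These groups overlapped as well, with a log2 fold change of 0.12 and a 95% confidence interval from -0.042 to 0.29 (adjusted p = 0.26 from edgeR). The intervals of both receptors reach past the fold threshold of 0.25, so a rise of that size is not excluded for either.

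DBP and TEF encode PAR bZIP activators of D-box genes. TEF, the clock gene with the largest change (chromosome 22, 41367333 to 41399326), had 12.9, 13.9 and 15.2 CPM in control and 23.7, 21.9 and 21.4 CPM in knockdown cultures. The groups were far apart, with the lowest knockdown library well above the highest control library. The means were 14.0 ± 1.12 and 22.3 ± 1.23 CPM (SD, n = 3), which gave a log2 fold change of 0.67 (SE 0.087, adjusted p = 1.29e-06 from edgeR). No annotated gene shares exon bases with TEF, nor with CRY2 or NR1D2. DBP, a direct target of CLOCK and BMAL1 in many tissues, had 17.8, 17.7 and 17.4 CPM in control and 24.2, 25.3 and 21.7 CPM in knockdown cultures. The control libraries were close together (SD 0.232 CPM) and all below the knockdown libraries, and the log2 fold change was 0.43 (SE 0.081, adjusted p = 0.0002 from edgeR). The DBP exons share 661 bases, 30.5% of the canonical transcript, with SPHK2 on the opposite strand. SPHK2, named after its values were seen, was itself upregulated, from 52.2 to 56.2 CPM in control to 73.7 to 90.6 CPM in knockdown cultures (log2 fold change 0.59, SE 0.066). Whether shared reads take part in the increase of DBP was not tested. The log2 ratio of TEF to DBP within a library was -0.46, -0.35 and -0.20 in control and -0.031, -0.21 and -0.020 in knockdown cultures, so that the groups overlapped, and the difference of 0.25 had a 2-sided exact permutation p of 0.2.

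**Figure D4:**
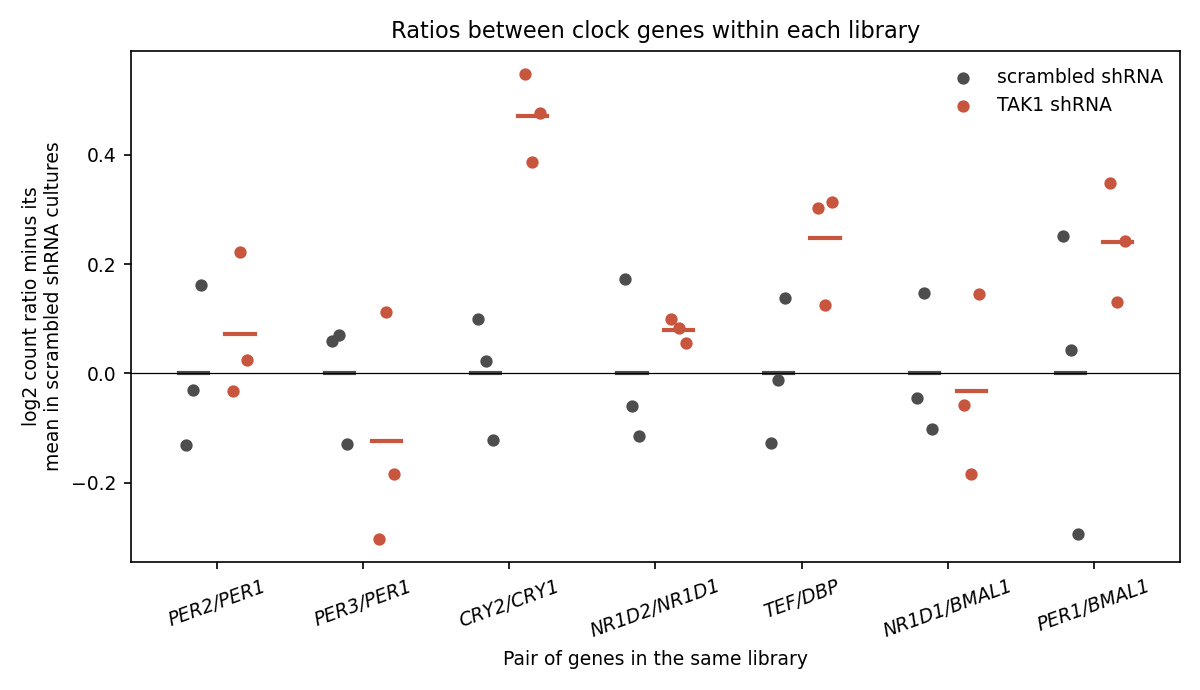
Log2 ratio of the counts of 2 clock genes in the same library, less its mean in control cultures, for the 7 pairs compared. Points are libraries and bars are group means. In CRY2/CRY1 alone do the 3 TAK1 shRNA libraries all lie above the control libraries, and in the other 6 pairs the groups overlap.

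Levels between genes were compared per kilobase of the canonical transcript in control cultures. CRY1 stood first at 17.9 ± 0.646 CPM per kilobase (SD, n = 3), followed by PER1 at 15.8 ± 0.629. DBP (8.13), CRY2 (5.72) and NR1D2 (4.67) formed the middle, and the libraries of neighbours in the order down to this point did not overlap. CLOCK (3.44 ± 0.295), TEF (3.20 ± 0.256) and PER2 (3.04 ± 0.195) did not differ beyond their spread. NR1D1 (2.11) and PER3 (1.77) were lowest and overlapped. The places of DBP and NR1D2 rest on the length used, and those of CLOCK, TEF and PER2 shift with them. Over the union of annotated exons, DBP held 2.72 CPM per kilobase and the eighth place. NR1D2 (4.22) then stood above CRY2 (3.81).

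Among the other clock genes listed from the pathway, BMAL1 (ARNTL) is the partner of CLOCK, and its antiphase to NR1D1 is a hallmark of a running clock. It had 4.01, 4.51 and 5.42 CPM in control and 4.86, 4.90 and 4.79 CPM in knockdown cultures. The knockdown values fell inside the control range, with a log2 fold change of 0.059 (95% confidence interval -0.25 to 0.37). The paralogs that can take the places of CLOCK and BMAL1 were lower. NPAS2, which can replace CLOCK, had 48.3, 46.6 and 47.3 CPM in control and 23.5, 27.2 and 27.5 CPM in knockdown cultures, a log2 fold change of -0.86 (SE 0.070, adjusted p = 6.52e-10 from edgeR). ARNTL2, which encodes BMAL2, had 5.17, 6.10 and 5.03 CPM in control and 2.46, 2.77 and 2.58 CPM in knockdown cultures, a log2 fold change of -1.06 (SE 0.16, adjusted p = 1.31e-05 from edgeR). Both sets of libraries were fully apart. In NPAS2, 748 exon bases are shared with a long noncoding RNA on the opposite strand and 400 with NPAS2-AS1, also opposite. The part of shared reads was not tested. Per kilobase of canonical transcript, NPAS2 held 11.8 CPM and CLOCK 3.44 CPM in control cultures, and over the union of annotated exons the levels were 3.79 and 3.12 CPM per kilobase. Of the 6 activators and RORs listed, 5 were tested, 0 were upregulated and these 2 were downregulated. Over all tested genes, 11.8% were upregulated and 11.3% downregulated. RORA, an activator of BMAL1, had a log2 fold change of -0.050, and RORB had at most 2 counts in a library.

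Of the 5 other D-box or E-box factors, 4 were tested, 1 was upregulated and 0 were downregulated. By the same rule 11.8% of all tested genes were up and 11.3% down. BHLHE40 (DEC1), a repressor that competes for E-boxes, had 16.1, 13.2 and 13.2 CPM in control and 18.5, 17.9 and 18.5 CPM in knockdown cultures, a log2 fold change of 0.37 (adjusted p = 0.0026 from edgeR). Its exons share 451 bases with BHLHE40-AS1 on the opposite strand, which had at most 0.11 CPM in a library. The third PAR bZIP gene, HLF, was sparse at 0.844 to 1.36 CPM, with a log2 fold change of 0.41 and a confidence interval that spans 0 (-0.23 to 1.04). NFIL3, which represses D-box genes, and CIART, a repressor of CLOCK and BMAL1, had log2 fold changes of 0.098 and 0.075 and did not pass the test.

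Among 13 kinases, phosphatases and ubiquitin enzymes that act on clock proteins, 12 were tested, 1 was upregulated and 2 were downregulated. Beside these counts stand 11.8% of all tested genes up and 11.3% down. USP2, a deubiquitinase that acts on PER1 and BMAL1 and is itself rhythmic in many tissues, had 12.9, 12.3 and 11.5 CPM in control and 21.5, 18.0 and 19.5 CPM in knockdown cultures. All knockdown libraries were higher, and the log2 fold change of 0.68 (SE 0.093, adjusted p = 2.38e-06 from edgeR) was close in size to that of TEF. USP2 shares 1142 exon bases with the antisense gene USP2-AS1, which had a log2 fold change of 0.43 at 3.40 to 5.23 CPM, and the part of shared reads was not tested. CSNK2A1, the catalytic subunit of casein kinase 2, fell by 0.33 on the log2 scale and BTRC, which marks PER proteins for degradation, fell by 0.27. BTRC was at -0.24 without replicate 2 of the knockdown cultures, under the fold threshold. CSNK1D and CSNK1E, the main kinases of the PER proteins, had log2 fold changes of 0.084 and 0.10 and did not pass the test. CSNK1E shares 1316 bases, 46.7% of its canonical transcript, with TPTEP2-CSNK1E on the same strand. CSNK1D shares 16.9% of its exon bases with genes on the opposite strand. The part of shared reads was not tested for either.

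Of 10 cofactors of the loop, 9 were tested. CREBBP, an acetyltransferase recruited by CLOCK and BMAL1, was upregulated (log2 fold change 0.31) and SIRT1, a deacetylase that binds CLOCK, was downregulated (-0.26). Without control replicate 3, SIRT1 was at -0.24, short of the fold threshold. Of the 8 output genes, all 8 were tested and 0 were called in either direction. KLF10 (-0.19, adjusted p = 0.037 from edgeR) and NAMPT (-0.16, adjusted p = 0.042 from edgeR) passed the adjusted p but not the fold threshold, and without knockdown replicate 3 there was 1 downward call in the list. WEE1, a cell cycle kinase driven by E-boxes, had 100.3 to 109.4 CPM and a log2 fold change of 0.032. Among 13 genes of the inputs to PER transcription, 11 were tested, 1 was upregulated and 2 were downregulated. CRTC3, a coactivator of CREB, rose by 0.36 on the log2 scale, CREM, which includes repressor forms, fell by 0.53, and FKBP5, a glucocorticoid target, fell by 0.25. FKBP5 sat at the threshold and left it in 3 of the 6 fits without 1 library, with log2 fold changes down to -0.21. DUSP1 (0.054), SGK1 (-0.012) and TSC22D3 (-0.12), also responsive to glucocorticoids, lay within the fold threshold. Over the 6 lists together, 49 of 55 genes were tested, 4 were upregulated and 7 were downregulated, with a median log2 fold change of -0.050. The shares called in all tested genes, 11.8% up and 11.3% down, stand beside these counts.

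**Figure D5:**
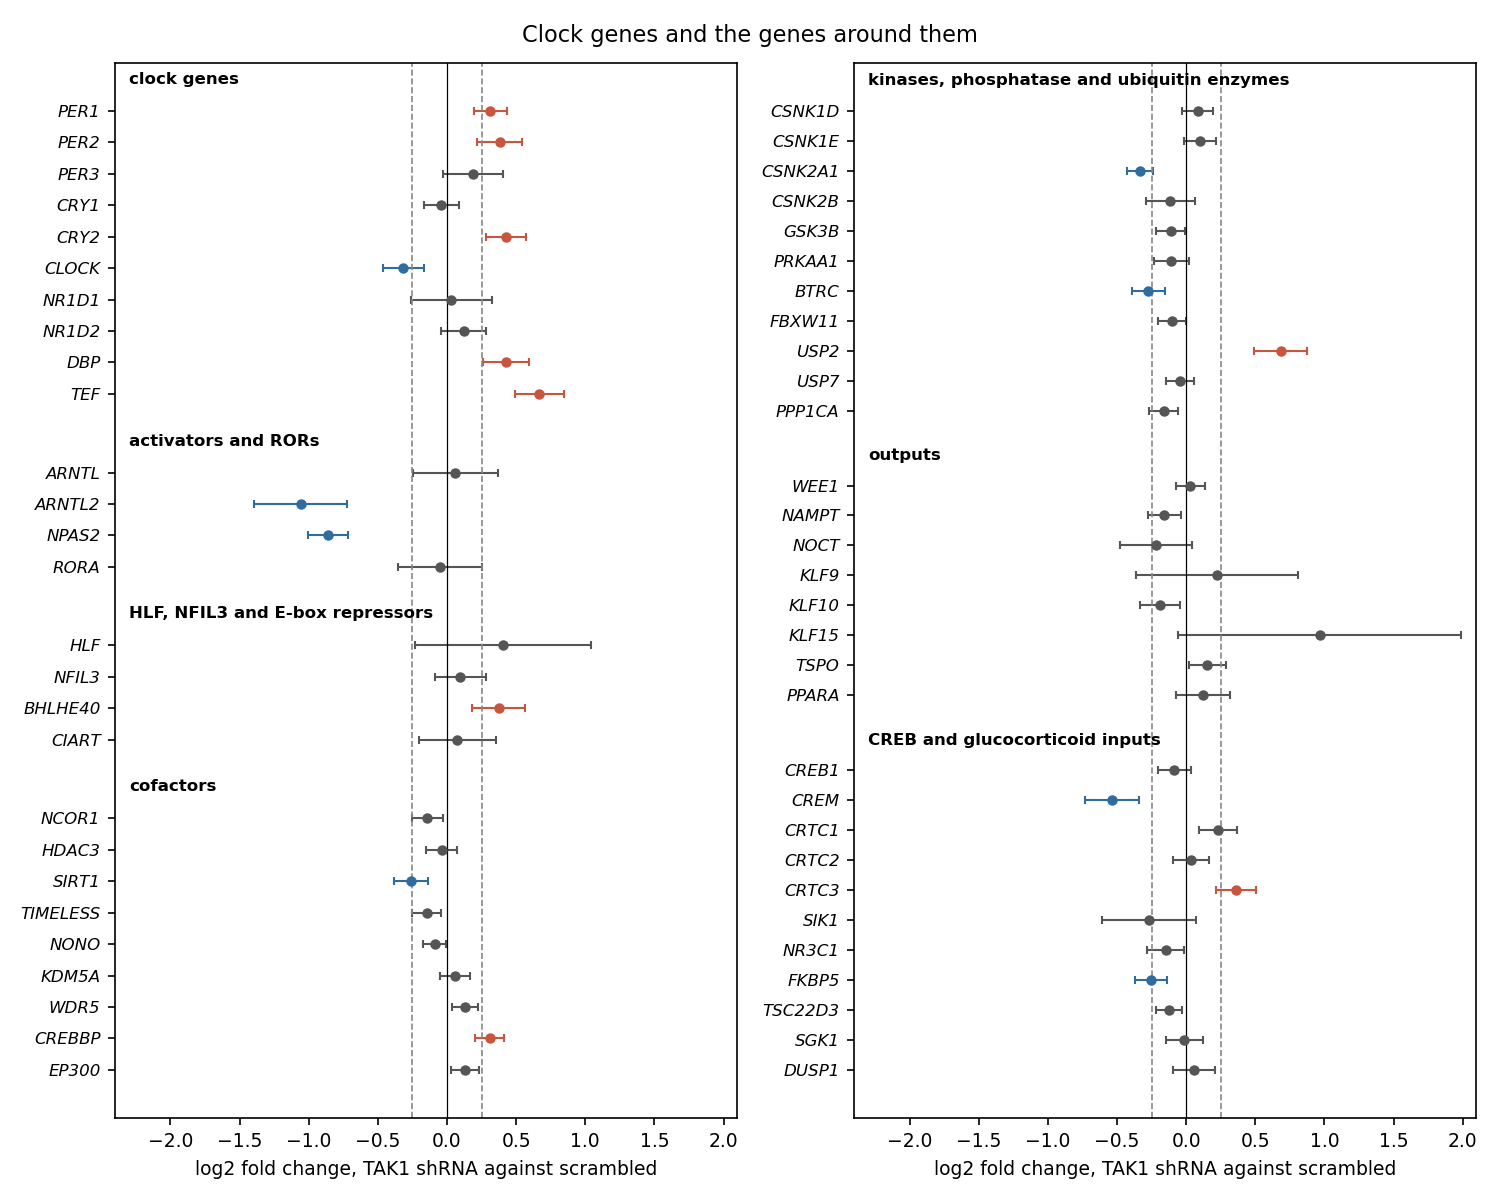
Log2 fold changes of the 10 clock genes and of 47 of the tested pathway genes, grouped by role, with bars for the 95% confidence interval and dashed lines at the fold threshold of 0.25. Red points were upregulated, blue points downregulated and grey points not called. USP2 (0.68) and TEF (0.67) are the highest called genes, and ARNTL2 (-1.06) and NPAS2 (-0.86) the lowest.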

How the data were processed

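Per the labels and the methods, poly(A)-enriched RNA from RD cells was sequenced in pairs on a NovaSeq instrument, bases were called with CASAVA, adaptor and low-quality reads were removed, and the rest were aligned to GRCh38 with STAR. The authors deposited raw counts per gene for each of the 6 libraries, without normalization. The counter, its annotation release and its use of strand are not given in the sources used here, so genes that overlap on opposite strands may share reads.

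Groups came from the labels. Counts were analysed with edgeR 4.0.16 in R 4.3.3, by its quasi-likelihood test. Low counts were filtered by its default, libraries were scaled by the trimmed mean of M-values, and p-values of 15935 genes were adjusted by the Benjamini-Hochberg method. Calls needed an adjusted p below 0.05 and a log2 fold change of 0.25 or more in size, the thresholds in the methods of the study. The legend of its volcano plot gives a fold threshold of 0.5 instead. The common biological coefficient of variation was 5.67%, and replicates of a group differed by more than sampling noise. Within-library ratios had 0.5 added to each count and were compared by a 2-sided exact permutation test. Exon overlaps, canonical transcript lengths and coordinates came from GENCODE 44, and promoter windows from RefSeq (GRCh38.p14).

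Named genes were all 10 clock genes, MAP3K7, each called gene of the 6 pathway lists and others where a sentence needed them. Of the pathway genes tested, 2 are counted in their lists and not reported here by name. The members and the lists were chosen with earlier results of these data known. The alternatives were DESeq2 1.42.0, limma 3.58.1 (voom), another 3 scalings, another 2 filters, fold thresholds of 0 and 0.5, the replicate block and each library left out. Levels over the union of annotated exons were an alternative chosen after seeing the data. The scripts were tested on simulated data with 200 changed genes.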

Additional observations from a re-analysis of the deposited data

How the results depend on the processing

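The 6 called clock genes kept their calls with all 3 other normalizations, DESeq2, voom, both other filters, the replicate block and each library left out. At a fold threshold of 0.5, 1 clock gene (TEF) was upregulated and 0 were downregulated, against 735 and 680 of all genes. That threshold left 0 calls upward among E-box or D-box repressors, 0 downward among kinases and ubiquitin enzymes, 0 upward and 0 downward among cofactors, and 0 upward and 1 downward among the inputs to PER transcription. With no fold threshold, cofactors had 3 up and 3 down, kinases 3 down, outputs 2 down and inputs 2 up and 3 down, and 2569 of all genes were up and 2734 down. With total counts alone as the scale, kinases had 1 down, cofactors 0 down and inputs 2 up and 1 down, CRY1 turned to 0.008, and 2376 of all genes were up and 1404 down, against 1879 and 1805. Upper-quartile scaling left cofactors 0 down and inputs 1 down, with 2027 of all genes up and 1662 down. At least 10 counts in every sample left inputs 1 down, with 1875 of all genes up and 1749 down. SIRT1, BTRC, FKBP5 and CRTC1 lie near the fold threshold, at -0.26, -0.27, -0.25 and 0.23.

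With 1 library left out, kinases ranged from 1 to 2 down (1 without knockdown replicate 2), cofactors from 0 to 1 down (0 without control replicate 3) and outputs from 0 to 1 down (1 without knockdown replicate 3). Inputs ranged from 1 to 2 up, with 2 without control replicate 1 or knockdown replicate 2. They ranged from 1 to 2 down, with 1 without control replicate 1 or 3 or knockdown replicate 1. Over all genes, the fits without 1 library gave 1582 to 1810 up and 1675 to 1931 down. NR1D1 ranged from -0.079 to 0.099, below 0 without replicate 1 of the control (-0.079) or replicate 3 of the knockdown cultures (-0.065), and ARNTL from -0.034 to 0.18, below 0 without replicate 1 of the control cultures (-0.034). CLOCK ranged from -0.38 to -0.25 and TEF from 0.61 to 0.73.

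The labels number replicates alike in both groups. Same-numbered libraries deviated together only weakly (correlations of 0.037, 0.036 and 0.017). The numbers were not taken to pair the samples, though a pairing is not excluded. The replicate block gave 5 clock genes up and 1 down, and 1942 and 1848 of all genes. Control replicate 3 correlated slightly better with knockdown replicate 2 (0.019) than with replicate 3 (0.017), and every other library correlated best with its own number. Between different numbers the correlations ran from -0.052 to 0.019. Low counts limit NR1D1, ARNTL and HLF most.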
